A study of Bos taurus with 24 samples.

Results

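Co-stimulatory and checkpoint molecules tune how T cells, B cells and myeloid cells respond to the cells that make them. Described here are 6 genes of surface molecules of this kind and 1 of a secreted receptor, 7 of 27371 different gene symbols in the files: CD83, CD40, CD274, CD200, ICOSLG, TNFSF18 and TNFRSF11B. They were chosen by name, as rows whose gene symbol was on the list, and where a symbol lay on several rows the row with the most read counts over all samples was to be used. Each of the 7 symbols lay on 1 row, so this step decided nothing, and no row overlapped another.

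Messenger RNA was sequenced from dermal fibroblasts of 4 Holstein and 4 Angus heifers of about the same age, a dairy and a beef breed. Skin was taken from the shoulder, and the cells were grown from cryopreserved stocks in medium with fetal bovine serum. Each culture was exposed to lipopolysaccharide (LPS), a bacterial cell wall component, at 100 ng/ml and sampled at 0, 2 and 8 h, which gives 24 samples in 6 groups of 4: Angus and Holstein at each hour. The medium was the same throughout and LPS was the only agent, with 0 h as the control condition. No culture kept without LPS to 2 or 8 h is analysed here, so LPS and time in culture cannot be told apart. The animals are numbered 1 to 4 within each breed, and the same animal gave the cells at all 3 hours.

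T cells need signals beside that of their receptor, and these come from co-stimulatory and co-inhibitory molecules on other cells. CD40 is a receptor of the TNF receptor family that is engaged by CD40 ligand on activated T cells, ICOSLG is a B7 family ligand of the T cell receptor ICOS, and TNFSF18 is the ligand of the receptor TNFRSF18 (GITR). CD274, also called PD-L1, and CD200 are ligands that restrain lymphocytes and myeloid cells, CD83 is a surface glycoprotein best known from mature dendritic cells, and TNFRSF11B, or osteoprotegerin, is a secreted decoy receptor.

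The levels below are CPM, read counts relative to the library total, scaled between libraries by the trimmed mean of M values (TMM), and differences are log2 fold changes with their standard error (SE) from fits to all rows. A row was tested where at least 50% of the samples compared had 1 CPM or more. It was called where its false discovery rate (FDR) was under 0.05, its fold change was at least 2 and its mean CPM was over 1. Members called are counted out of the 7, including those not tested, while shares of rows are out of the rows tested. Fewer expressing cells and less RNA per cell cannot be told apart in these bulk samples, for any of the genes. Library totals ran from 51014538 to 104406293 counts, and 3 counts stood for 0.029 to 0.059 CPM. Fibroblast genes were high in every sample, with summed CPM of 10 markers between 37873.76 and 124724.6. Of 12 leukocyte markers, summing to between 8.87 and 27.48 CPM, 2 reached 1 CPM (LAPTM5 and CD68). MS4A1 and CD79A were at 0 counts in 16 and 22 of the 24 samples, while PTPRC, CD14 and CSF1R had counts in all 24. Of 6 endothelial markers 2 reached 1 CPM, the list summing to between 0.96 and 3.5 CPM, and of 6 melanocyte and nerve sheath markers 2 did, summing to between 5.66 and 12.38. Some of these sums moved with breed, animal or hour. The leukocyte sum at 0 h was 13.31 to 20.41 in Angus, 21.6 in Holstein animal 1 and 8.87 to 10.4 in Holstein animals 2 to 4. At 0 h the melanocyte and nerve sheath sum was 10.2 to 11.46 in Angus and 5.95 to 7.74 in Holstein, and in Angus at 2 h it was 6.27 to 7.94. The fibroblast sum at 0 h was 53287.66 to 68851.5 in Angus and 72572.25 to 124724.6 in Holstein. The endothelial sum at 8 h was 1.67 to 2.05 in Angus and 2.17 to 3.5 in Holstein. The 7 keratinocyte and epithelial markers summed to between 19.2 and 24.3 CPM in the 3 samples of Holstein animal 1 and to at most 1.17 in the other 21, and the part of any of these lists in the results was not tested.

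All 8 animals had more CD83, ICOSLG, CD274 and CD40 message at 2 h than at 0 h, and less TNFSF18. That is 4 genes higher in every animal where 17.8% of all rows tested were, and 1 lower where 18.3% were. At 8 h CD83, CD274 and CD40 were still above 0 h in all 8 animals, a state that 13.8% of rows tested shared. CD274 at both hours, and CD83 at 8 h, were under the filter on low counts and so not among the rows tested. With both breeds combined, 2 of the 7 genes were called at 2 h (CD83 and CD40, both higher), beside 2.82% of all rows called and 2.08% called higher. With the animal as a replicate block 4 were called at 2 h, ICOSLG (higher, FDR 1.24e-06) and TNFSF18 (lower, FDR 8.05e-36) being added. At 8 h 1 was called (CD40, higher), beside 1.42% called and 1.07% called higher. The plot of levels by animal shows the shapes: CD83 as a spike, CD40 as a climb, TNFSF18 as a dip, and CD200 as a level that differed by breed more than by hour.

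**Figure D1:**
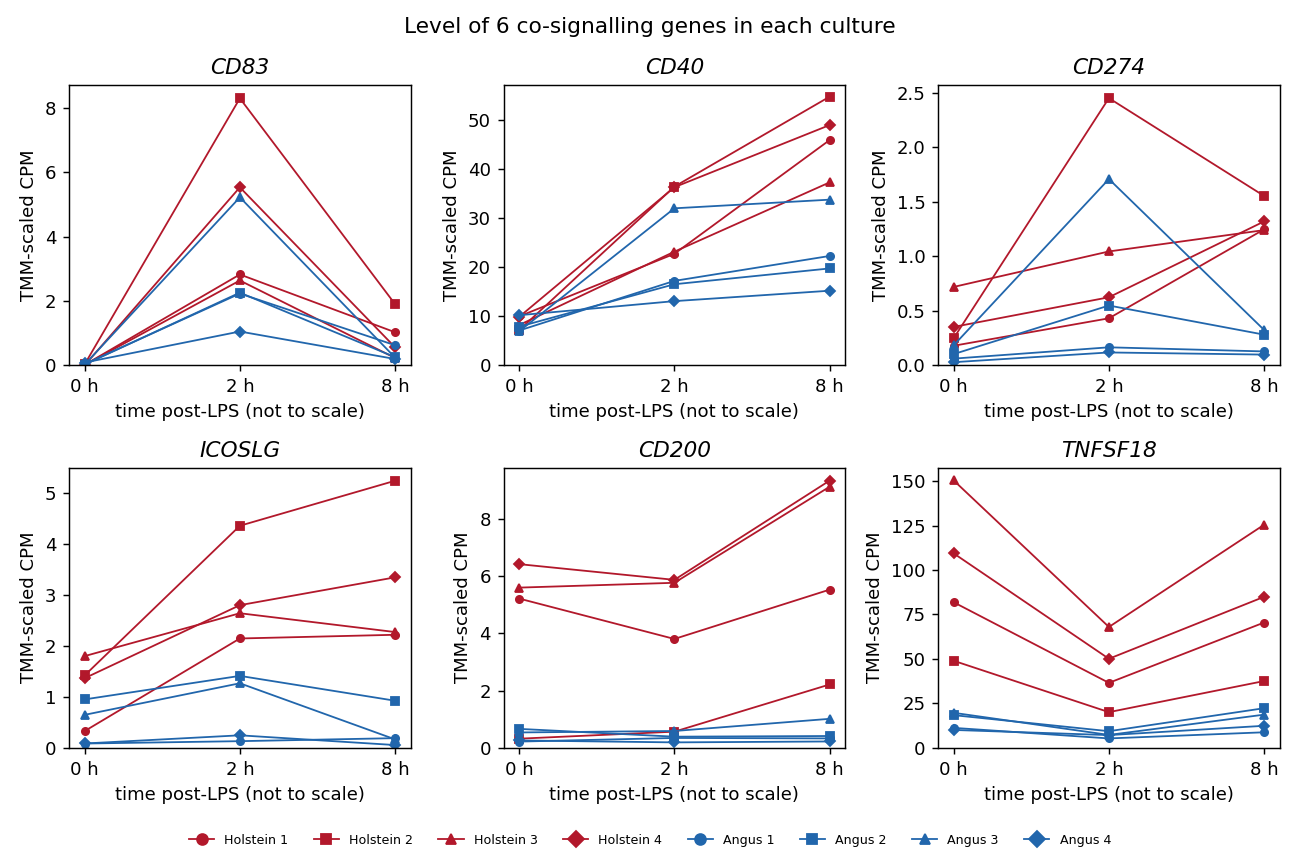
Level of 6 genes (TMM-scaled CPM, linear axes starting at 0, a scale of its own for each gene) by hours since LPS was added. Each line is 1 animal, red for Holstein and blue for Angus. CD83 reached 8.31 CPM in Holstein animal 2 at 2 h, and TNFSF18 fell at 2 h in all 8 animals.

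CD83 (chromosome 23, 42335196 to 42354922, minus strand, build UMD v3.1) was nearly silent before LPS. The 4 Holstein cultures held 1, 2, 1 and 0 counts at 0 h, and the 4 Angus cultures 3, 2, 2 and 9. At 2 h the Holstein animals had 2.83, 8.31, 2.64 and 5.54 CPM and the Angus animals 2.23, 2.26, 5.23 and 1.05 CPM. Both breeds rose from next to nothing, and their ranges at 2 h overlapped.

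Pooled over 4 animals, Holstein CD83 went from 4 counts to 1337 at 2 h, a ratio of 320 after scaling (exact 95% interval 125 to 1177, counting error only). In Angus 16 counts became 831, a ratio of 60.9 (37.3 to 107). The fitted change was 8.20 ± 0.84 (SE) in Holstein (FDR 4.79e-31) and 5.93 ± 0.63 in Angus (FDR 6.7e-16), the third largest of 495 called rises in Holstein and the fourth largest of 401 in Angus. Without Angus animal 3, which had the highest Angus level at 2 h, the Angus change was 5.15 (FDR 7.82e-18) but the mean CPM was no longer over 1, so the call was lost. That 2 h sample is also one of the 4 whose reads of the collagen gene COL1A1 had been counted otherwise. Without those samples the change was 6.02 (FDR 1.98e-22) and likewise not called. Between breeds at 2 h the CD83 difference was 0.84 ± 0.52 (FDR 0.263), not called, and without Angus animal 3 it was 1.38 (FDR 0.0182) and called.

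By 8 h most of the CD83 message was gone. The Holstein animals had 1.03, 1.90, 0.229 and 0.560 CPM and the Angus animals 0.625, 0.255, 0.241 and 0.197 CPM, all 8 below their own 2 h value. From 2 to 8 h the fall was called with breeds combined, at -2.57 ± 0.49 (FDR 1.25e-05), and CD83 was the 1 gene of the 7 called in that comparison, beside 2.76% of all rows, with 1.61% of all rows called lower. Rows lower at 8 h than at 2 h in all 8 animals were 17.2% of those tested. The 8 h levels were still above 0 h in every animal, with ratios of pooled counts of 64.9 in Holstein (25.1 to 240) and 7.50 in Angus (4.41 to 13.6).

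CD40 (chromosome 13, 75563518 to 75574217, plus strand) was expressed before LPS and kept climbing through 8 h. At 0 h the Holstein animals had 9.97, 7.16, 8.21 and 9.87 CPM and the Angus animals 7.09, 7.88, 6.93 and 10.2 CPM, fully intermingled, and the breed difference of 0.13 ± 0.19 was not called (FDR 0.709). At 2 h the Holstein levels were 22.7, 36.4, 23.2 and 36.3 CPM, and the Angus levels 17.2, 16.5, 32.0 and 13.1 CPM. The lowest 2 h value, 13.1 CPM in Angus animal 4, was still above the highest 0 h value.

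At 8 h the Holstein animals had reached 45.9, 54.8, 37.3 and 49.0 CPM of CD40, and the Angus animals 22.3, 19.8, 33.8 and 15.2 CPM. Every Holstein animal was now above every Angus animal, though Angus animal 3 came within a few CPM of Holstein animal 3. Within an animal the rise from 0 to 8 h ran from 4.54 to 7.65 times in Holstein and from 1.49 to 4.87 times in Angus.

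The change in CD40 at 2 h was 1.75 ± 0.20 in Holstein (FDR 3.06e-15) and 1.29 ± 0.29 in Angus (FDR 0.000178). At 8 h it was 2.41 ± 0.15 in Holstein (FDR 1.97e-47) and 1.5 ± 0.26 in Angus (FDR 2.81e-06). CD40 was the 1 gene of the 7 called in Angus at 8 h, where 0.863% of rows tested were called and 0.592% called higher. Of the 7, CD40 and TNFSF18 alone were tested there. The Angus call at 2 h was lost without Angus animal 3 (0.89, under the fold limit, FDR 0.000442).

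Between breeds the CD40 difference was 0.58 ± 0.30 at 2 h (FDR 0.152) and 1.04 ± 0.24 at 8 h (FDR 0.000621). The latter was just past the fold limit, and without Angus animal 2, Angus animal 4 or Holstein animal 2 it was under it (0.98, 0.88 and 0.96). Among 460 rows called higher in Holstein at 8 h, CD40 had rank 426 by size.

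CD274 (chromosome 8, 39497223 to 39514616, minus strand), the ligand of PD-1, was low throughout. At 0 h the Holstein animals had 0.180, 0.249, 0.720 and 0.352 CPM and the Angus animals 0.0615, 0.103, 0.183 and 0.0289 CPM. At 2 h the values spread widely, with 0.432, 2.45, 1.04 and 0.625 CPM for the Holstein and 0.165, 0.549, 1.71 and 0.118 CPM for the Angus animals. Each breed had 1 animal far above its others at 2 h, Holstein animal 2 and Angus animal 3.

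At 8 h the breeds no longer overlapped. The 4 Holstein animals lay close together at 1.25, 1.55, 1.24 and 1.32 CPM, and the Angus animals were at 0.128, 0.281, 0.324 and 0.0985 CPM. The lowest Holstein value was over the highest Angus value, and the SD of the Holstein group was 0.147 CPM at 8 h against 0.912 CPM at 2 h.

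CD274 entered 2 of the 12 comparisons, and in both it passed the limits on FDR and fold but not that on mean CPM. The rise in Holstein at 8 h was 1.81 ± 0.38 (FDR 6.08e-05, mean 0.895 CPM), and 1.56 (FDR 0.0225) and called without the 0 h samples of Holstein animals 2 and 4. The breed difference at 8 h was 2.66 ± 0.33 (FDR 1.82e-12, mean 0.843 CPM). In the other 10 it was under the filter on low counts. Without that filter the breed difference at 0 h was 1.98 ± 0.62 (FDR 0.0309, mean 0.256 CPM). At 2 h it was 0.83 ± 0.78 (FDR 0.586, mean 0.866 CPM). Pooled counts in Angus went from 34 at 0 h to 202 at 2 h and 69 at 8 h, ratios of 6.97 (4.83 to 10.3) and 2.32 (1.52 to 3.61).

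CD200 (chromosome 1, 57568530 to 57591092, plus strand), which acts on a receptor of myeloid cells, differed by breed more than by hour. The Angus animals had between 0.193 and 1.01 CPM in their 12 samples. Holstein animals 1, 3 and 4 had 5.21, 5.59 and 6.41 CPM at 0 h, 3.80, 5.76 and 5.86 CPM at 2 h, and 5.52, 9.11 and 9.32 CPM at 8 h. Holstein animal 2 was the exception, with 0.322 CPM at 0 h and 0.567 CPM at 2 h, both within the Angus range, and 2.21 CPM at 8 h.

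With animal 2 low, CD200 missed the filter on low counts between breeds at 0 and 2 h, where 3 of 8 samples reached 1 CPM. Without that filter the breed difference was 3.36 ± 0.67 at 0 h (FDR 0.000544) and 3.39 ± 0.59 at 2 h (FDR 2.39e-05). At 8 h it was tested and called, at 3.71 ± 0.55 (FDR 1.61e-07), the fourth largest of 460 differences called higher in Holstein, with no overlap between the breeds.

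Over the hours CD200 moved less. All 4 Holstein animals had more at 8 h than at 0 h, by 0.08 to 1.72 on the log2(CPM + 0.5) scale, and 2 of 4 Angus animals did. The fitted Holstein change at 8 h was 0.58 ± 0.71 (FDR 0.697), not called. With the animal as a replicate block it was 0.94 ± 0.38 (FDR 0.048), under the fold limit.

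ICOSLG (chromosome 1, 145687667 to 145695949, minus strand) was higher at 2 h than at 0 h in all 8 animals and differed between breeds after LPS. At 0 h the Holstein animals had 0.329, 1.42, 1.80 and 1.37 CPM and the Angus animals 0.0860, 0.951, 0.648 and 0.0867 CPM. At 2 h these were 2.14, 4.35, 2.64 and 2.80 CPM and 0.132, 1.41, 1.27 and 0.247 CPM. Every Holstein animal was above every Angus animal at 2 h, and Angus animals 1 and 4 stayed lowest at both hours.

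At 8 h the Holstein animals had 2.22, 5.23, 2.27 and 3.34 CPM of ICOSLG, and the Angus animals 0.191, 0.925, 0.167 and 0.0563 CPM. The Holstein levels had held, while 3 of 4 Angus animals were below their own 0 h value. The breeds again did not overlap. In Angus, where ICOSLG was under the filter on low counts, pooled counts went from 159 at 0 h to 242 at 2 h and 104 at 8 h. Those are ratios of 1.784 (1.455 to 2.194) and 0.747 (0.578 to 0.963).

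The Holstein rise of ICOSLG was 1.27 ± 0.45 at 2 h (FDR 0.0328) and 1.41 ± 0.47 at 8 h (FDR 0.0282). Both calls were lost without Holstein animal 2 (FDR 0.212 and 0.217) or animal 4 (FDR 0.121 and 0.149), and by the quasi-likelihood F test (FDR 0.0823 and 0.0813). Both were also lost without the 0 h samples of these 2 animals, whose COL1A1 reads had been counted otherwise (FDR 0.136 and 0.151). The 2 h call was also lost with no filter on low counts (1.27, FDR 0.052). With the animal as a replicate block they were 1.41 ± 0.30 (FDR 4.17e-05) and 1.53 ± 0.35 (FDR 0.000165), and the change at 2 h with breeds combined, 1.16 ± 0.64 (FDR 0.221) without the block, was called at 1.18 ± 0.22 (FDR 1.24e-06).

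Between breeds the ICOSLG difference was 1.47 ± 0.77 at 0 h (FDR 0.207), 1.95 ± 0.64 at 2 h (FDR 0.0221) and 3.28 ± 0.69 at 8 h (FDR 0.000494). The call at 2 h was lost by the F test (FDR 0.0634), and without Angus animal 4, Holstein animal 2 or Holstein animal 4 (FDR 0.0714, 0.0895 and 0.056). At 8 h ICOSLG had the eighth largest of those 460 differences, and when any 1 of the Holstein animals was left out too few samples reached 1 CPM for it to be tested.

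TNFSF18 (chromosome 16, 41541495 to 41552708, minus strand), the GITR ligand, had the most counts of the 7 genes, 79244 over all samples. At 0 h the Holstein animals had 81.9, 49.0, 150.4 and 109.4 CPM and the Angus animals 11.3, 18.4, 19.7 and 10.1 CPM. At 2 h they had 36.6, 20.1, 68.0 and 50.1 CPM and 5.34, 9.40, 7.30 and 7.20 CPM. Levels fell in all 8 animals, and every Holstein animal stayed above every Angus animal.

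At 8 h TNFSF18 was back at 70.5, 37.6, 125 and 85 CPM for the Holstein animals and at 8.79, 22.3, 18.7 and 12.4 CPM for the Angus animals. All 8 animals were above their 2 h value, as were 17.6% of rows, and the 4 Holstein animals were still below their 0 h value, by 1.16 to 1.30 times. The order of the Holstein animals was the same at all 3 hours, with animal 3 highest and animal 2 lowest.

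The fall at 2 h was close to equal among Holstein animals, from 2.18 to 2.44 times, and ran from 1.40 to 2.70 times among Angus animals. It was called in Holstein at -1.17 ± 0.40 (FDR 0.0289) and in Angus at -1.03 ± 0.27 (FDR 0.00283). With breeds combined the change was -1.14 ± 0.62 (FDR 0.21) with no block and -1.09 ± 0.08 (FDR 8.05e-36) with the animal as a replicate block, and called. In Angus the blocked change of -0.99 ± 0.15 (FDR 2.88e-09) was just under the fold limit.

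The unblocked fall in Holstein was not called without Holstein animal 1 or 4 (FDR 0.161 and 0.134), by the F test (FDR 0.0882) or by DESeq2 (FDR 0.0548), and in Angus it was not called without Angus animal 3 (-0.86, FDR 0.0529). The return from 2 to 8 h was 0.91 ± 0.60 (FDR 0.309), and 0.96 ± 0.08 (FDR 4.34e-33) with the block, under the fold limit in both. At 8 h against 0 h the blocked change was -0.30 ± 0.05 in Holstein (FDR 3.33e-07) and 0.03 ± 0.12 in Angus (FDR 0.897).

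TNFSF18 was called between breeds at each hour, at 2.71 ± 0.34 (FDR 8.73e-11), 2.57 ± 0.34 (FDR 3.11e-10) and 2.36 ± 0.38 (FDR 9.75e-07), fold differences of 6.56, 5.95 and 5.13. It was the 1 gene of the 7 called at 0 h, where 3.83% of rows were called and 1.74% called higher. At 2 h 2 of the 7 were called (ICOSLG and TNFSF18) beside 4.46% of rows called and 2.44% called higher, and at 8 h 4 were (CD200, ICOSLG, TNFSF18 and CD40) beside 3.25% and 2.22%. All of these were higher in Holstein. Not tested between breeds at 0 h were CD83, CD200, CD274 and TNFRSF11B. At 2 h CD200, CD274 and TNFRSF11B were not tested, and at 8 h CD83 and TNFRSF11B were not. Every Holstein animal was above every Angus animal for 1, 2 and 5 of the 7 genes at 0, 2 and 8 h, beside 9.35%, 12.9% and 11.2% of rows tested. The fifth at 8 h was CD274.

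TNFRSF11B (chromosome 14, 47432903 to 47461081, plus strand) was at the floor, with 9 counts over all 24 samples. It was at 0 in 17 samples and at no more than 2 counts in the other 7, below the 3 counts taken as the floor, so no fold is given and no difference was detectable at this depth.

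Within Holstein, 4 of the 7 genes were called at 2 h (CD83, ICOSLG and CD40 higher, TNFSF18 lower), beside 3.17% of rows called, 2.44% higher and 0.733% lower. At 8 h 2 were (ICOSLG and CD40, higher), beside 2.52% called and 1.92% called higher. Within Angus, 3 were called at 2 h (CD83 and CD40 higher, TNFSF18 lower), beside 2.99% called, 1.97% higher and 1.02% lower. The comparisons within a breed share their 0 h samples. The plot of fitted changes sets these values side by side.

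**Figure D2:**
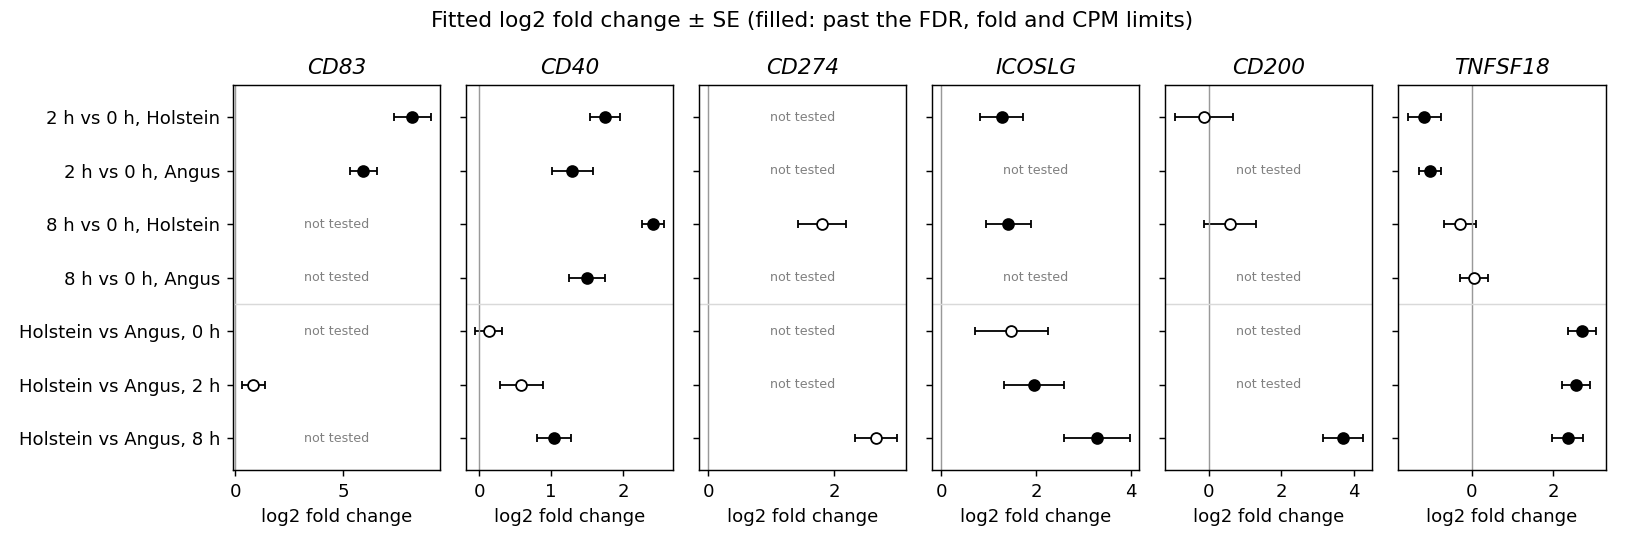
Fitted log2 fold change with its SE (bars) for 6 genes in 7 comparisons, the hours within each breed above and Holstein against Angus below, on a scale of its own for each gene. Filled points passed the limits on FDR, fold and mean CPM, open points did not, and "not tested" marks genes under the filter on low counts. TNFSF18 was at 2.71, 2.57 and 2.36 between breeds at 0, 2 and 8 h.

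Whether LPS moved a gene differently in the 2 breeds was tested by an interaction term. Of the genes tested edgeR called none at 2 h or at 8 h, where 0.278% and 0.0982% of rows tested were. CD274 and TNFRSF11B were under the filter on low counts at both hours, CD200 at 2 h and CD83 at 8 h. With no filter the CD83 term at 8 h was 2.95 ± 1.16 (likelihood-ratio test, p 0.00645, FDR 0.834). Among the genes that passed the filter, 1 at each hour had an unadjusted p under 0.05. For CD83 at 2 h the term was 2.3 ± 1.09 (FDR 0.868), and for CD40 at 8 h it was 0.90 ± 0.31 (FDR 0.553), both larger in Holstein. With the replicate block the CD40 term was 0.94 ± 0.31 (FDR 0.0776) and the ICOSLG term at 8 h 1.95 ± 0.61 (FDR 0.0696). Without Angus animal 3, the Angus animal with the highest CD40 at 2 and 8 h, the CD40 term at 8 h was 1.22 (FDR 0.00193) and called. DESeq2 and the F test called none.

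The animals did not hold 1 rank across the genes. Holstein animal 2 had the lowest CD200 and TNFSF18 of the 4 Holstein animals at all 3 hours. The same animal had the highest CD83, ICOSLG, CD274 and CD40 of the 4 at both 2 and 8 h. Among Angus, animal 3 had the highest CD83, CD274 and CD40 at 2 h, and animal 4 the lowest of all 3.

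Over the 24 samples, after each group's mean was taken away, CD200 and TNFSF18 varied together (Pearson r = 0.804), as did CD83 with CD40 (0.705) and ICOSLG with CD274 (0.653), while CD83 and TNFSF18 went opposite ways (-0.548). These are descriptions over 24 samples that share animals and libraries. The map of all samples shows Holstein animal 2 as red in the upper rows and pale or blue in the lower rows at 2 h.

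**Figure D3:**
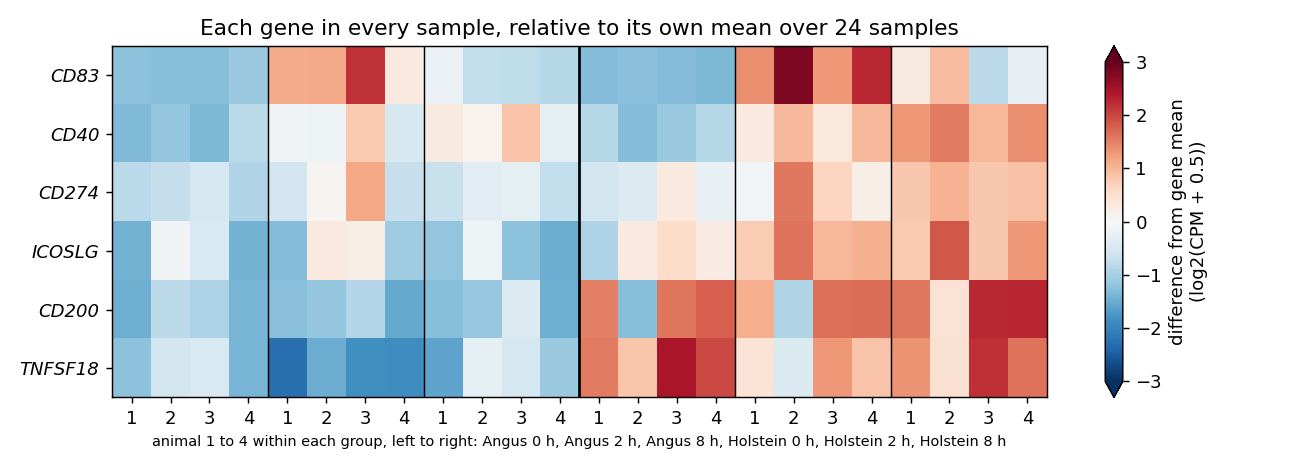
Each gene (rows) in all 24 samples (columns, animals 1 to 4 within each group) as the difference from that gene's mean, on the log2(CPM + 0.5) scale, red above and blue below. Holstein animal 2 at 2 h had 8.31 CPM of CD83 and 0.567 CPM of CD200.

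The files also count reads in the gene-free intervals between genes, which played no part in choosing the genes. The interval after the end of ICOSLG (chromosome 1, 145610048 to 145687666) followed the gene, with r = 0.943 over the 24 samples. Its mean level was 1.7 ± 0.384, 4.50 ± 1.19 and 5.20 ± 2.35 CPM (SD, 4 animals) in Holstein at 0, 2 and 8 h. In Angus it was 0.566 ± 0.403, 1.06 ± 0.455 and 0.803 ± 0.490 CPM.

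That interval was called in Holstein at 2 h (1.39 ± 0.25, FDR 1.25e-06) and 8 h (1.61 ± 0.33, FDR 3.77e-05). It was called between breeds at 0, 2 and 8 h (1.59, 2.08 and 2.69, with FDR 0.0151, 1.25e-07 and 6.42e-06). The 0 h breed call was lost by the F test (FDR 0.068), without Angus animal 1 (FDR 0.0728), without Holstein animal 2 (FDR 0.0601) and without the samples counted otherwise (FDR 0.265).

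Both intervals beside CD200 were called between breeds at 8 h. The one before its start (chromosome 1, 57526539 to 57568529) differed by 2.58 ± 0.61 (FDR 0.00148) and the one after its end (57591093 to 57672615) by 2.46 ± 0.45 (FDR 2.25e-05). They followed CD200 over the 24 samples with r of 0.881 and 0.983. The interval before the start of TNFSF18 (chromosome 16, 41552709 to 41689562) was called at 0, 2 and 8 h, at 1.44, 1.14 and 1.13 (FDR 0.00186, 0.00108 and 0.0119). Without Holstein animal 3 it was under the fold limit at 2 and 8 h (0.94 and 0.70), and its 8 h call was also lost by the F test (FDR 0.052) and without Angus animal 1 or 4 (FDR 0.0678 and 0.0587). Whether the reads in these intervals come from the neighbouring gene was not tested. The interval after CD40 held almost no reads, at most 0.0253 CPM in any group mean, and had r of 0.345 with the gene. The intervals after CD274 and CD83 were under the filter, with r of 0.915 and 0.742.

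**Figure D4:**
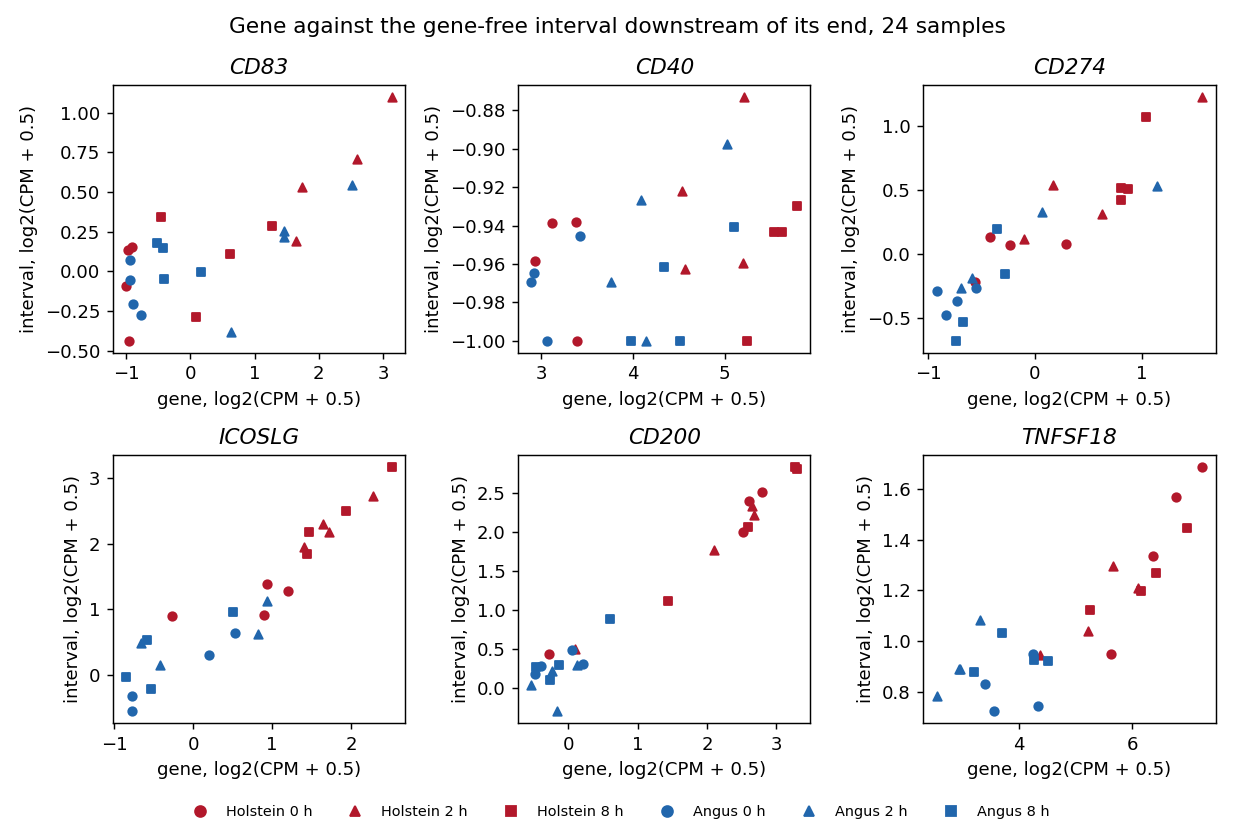
Level of each gene (horizontal) against that of the gene-free interval after its end (vertical), both as log2(CPM + 0.5), in 24 samples, with axes of their own for each gene. Colours give the breed and shapes the hour, and the interval of CD200 lies closest to a line with its gene (r = 0.983).

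Of 8 genes listed as binding partners of the 7 genes, or as a receptor of such a partner (TNFRSF11A), all 8 were in the files. Of these 1 passed the filter on low counts. TNFRSF18, the receptor for TNFSF18, had 2 counts in all and was at 0 in 23 of 24 samples, and CD40LG, the ligand of CD40, reached at most 0.0696 CPM. ICOS and CD200R1 reached at most 0.286 and 0.322 CPM. The partner with a level was PDCD1, the gene of the CD274 receptor PD-1, at 14.4 ± 6.66, 21.9 ± 9.12 and 17.9 ± 8.69 CPM (SD, 4 animals) in Angus at 0, 2 and 8 h. The Holstein means were 5.86 ± 3.98, 8.64 ± 5.08 and 7.48 ± 4.45 CPM. It was lower in Holstein at each hour by 1.26 to 1.35 on the log2 scale, with overlapping ranges and not called (lowest FDR 0.0821).

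Nearby families gave a background for the 7. Of 86 other co-signalling, TNF family and downstream genes, 79 were in the files, and 39 to 42 were tested in a comparison. At 2 h with breeds combined 6 of 41 were called, all higher, where 2.08% of all rows were called higher, and at 8 h 5 of 42 were higher and 1 lower, where 1.42% of all rows were called. These stood beside list medians of 0.11 and 0.01 and medians of -0.0039 and -0.0072 over all rows. Signalling genes below CD40 and its relatives made up most of these: of 16 tested, 4 were higher at 2 h, and 5 were higher and 1 lower at 8 h.

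The largest at 2 h were TNFAIP3, an inhibitor of NF-kB signalling, at 5.45 ± 0.38 (FDR 4.03e-31), BIRC3, a ubiquitin ligase bound to TNF receptor complexes, at 2.86 ± 0.31 (FDR 8.06e-16), and RELB, an NF-kB subunit, at 2.27 ± 0.26 (FDR 2.08e-15). The one called lower at 8 h was TRAF5, an adaptor of TNF receptors, at -1.05 ± 0.21 (FDR 3.48e-05). From 2 to 8 h 3 of 39 were called lower and none higher, where 1.61% of all rows were called lower: TNFRSF1B, TNFAIP3 and the ligand TNFSF9, at -1.72, -1.64 and -1.30. None of the B7 and CD28 relatives (8 tested) was called with breeds combined at 2 or 8 h. Within Holstein at 2 h 1 of 8 was called higher, where 2.44% of all rows were. Between breeds 1 of 8 was called higher in Holstein at 0 h and 1 of 8 at 8 h, where 1.74% and 2.22% of all rows were. The one at 8 h was HAVCR2, at 1.27.

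Between breeds 5 of 41 list genes were called higher in Holstein at 0 h, 4 of 40 at 2 h and 5 of 41 at 8 h, where 1.74%, 2.44% and 2.22% of all rows were, and 0, 1 and 1 were called lower. TNFSF4, the OX40 ligand and the next gene to TNFSF18 on chromosome 16, had 1.93 ± 0.739, 0.810 ± 0.389 and 1.52 ± 0.567 CPM (SD, 4 animals) in Holstein at 0, 2 and 8 h. In Angus it had 0.436 ± 0.103, 0.297 ± 0.160 and 0.572 ± 0.293 CPM. It was called higher in Holstein at 0 h (2.15 ± 0.33, FDR 4.69e-08) and 8 h (1.41 ± 0.39, FDR 0.00589), and called lower in Holstein at 2 h than at 0 h (-1.25 ± 0.38, FDR 0.00951). The latter was lost without Holstein animal 1 or 4 (FDR 0.0539 and 0.121), and the 8 h breed call kept an FDR of 0.0303 but not the mean CPM without Holstein animal 3. TNFRSF6B, a decoy receptor, was lower in Holstein at 2 and 8 h (-1.06 ± 0.38 and -1.05 ± 0.38, FDR 0.0319 and 0.0438), calls that were lost by the F test (FDR 0.0802 and 0.0966), without Angus animal 1 (FDR 0.16 and 0.209) or 4 (0.105 and 0.0738), and without Holstein animal 2 (0.128 and 0.138), 3 (0.0916 and 0.133) or 4 (0.0926 and 0.158).

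For each gene above the floor, the 3 genes whose levels were most like it over the 24 samples were found among 13460 rows with a symbol and 1 CPM in at least 6 samples. CD40 was most like CCL5, TNIP1 and NFKB2 (Pearson r of 0.980, 0.975 and 0.974), and CD83 most like RNF19B, HMGA1 and AMPD2 (0.962, 0.962 and 0.957). CD274 was most like RNF19A, ICAM1 and TNFAIP6 (0.903, 0.883 and 0.880), and ICOSLG most like RAB5B, ITGAV and INHBA (0.899, 0.895 and 0.890).

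CD200 was most like LOC790886, C18H19orf33 and LOC781004 (0.934, 0.925 and 0.920), and TNFSF18 most like LOC539821, LOC100847123 and AAGAB (0.955, 0.949 and 0.934). With each group's mean taken away these values were lower, from 0.629 for TNFSF18 and AAGAB to 0.931 for CD40 and NFKB2. They were picked as the highest of many and share animals and libraries.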

How the data were processed

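RNA was sequenced in 24 samples, 1 per animal and hour. Per the labels and methods, lysates of duplicate wells were pooled, poly-A RNA was made into TruSeq libraries, and reads were called with CASAVA 1.7 and aligned with NextGENe to UMD v3.1. The deposited values used are whole read counts per row, where a row is the span of a gene with its introns or a gene-free interval; the deposited mean coverage signal was used for a check of the counting alone. In 4 samples (Angus 4 at 0 h, Angus 3 at 2 h, Holstein 2 and 4 at 0 h) reads of the collagen gene COL1A1 were counted otherwise: each count stood for 66.2 to 67.1 covered bases, while in the 20 others it stood for 111.8 to 119.0. Where such a sample held enough reads to be checked (4 of them for TNFSF18 and CD40, 3 for ICOSLG, 1 each for CD83, CD200 and CD274), no gap of that size was seen, though it was the lowest sample for CD83 (80.8, others up to 88.1) and for ICOSLG (64.1, others up to 73.9). TNFRSF11B could not be checked.

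Counts over 59846 rows were fitted with edgeR 4.0.16 in R 4.3.3 (TMM scaling, likelihood-ratio test, Benjamini-Hochberg FDR), each comparison on its own samples with groups taken from the labels. The mean CPM limit used edgeR's average CPM. The code was tested on simulated data. Alternatives were the quasi-likelihood F test, DESeq2 1.42.0, other scaling, no filter, FDR alone, the animal as a replicate block, leaving out each animal, and leaving out the 4 samples above. The labels number the animals, so hours pair by animal: deviations from group means correlated at 0.533 to 0.737 between the 0 and 2 h samples of 1 animal, and at -0.572 to 0.208 between different animals. None of 36 pairs of libraries of 1 group looked like a duplicate (lowest chi-square over degrees of freedom 29.6).

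The genes and lists were chosen with earlier results of these data known, so FDR values describe and are not independent evidence. From the lists, at most the 3 largest called changes in each direction and comparison were to be named, and the genes most like a member were those with the highest Pearson r of log2(CPM + 0.5). PDCD1 and the other binding partners named were chosen after their values were seen. Intervals and floors cover counting error only. No sequence is shown, and positions are those of the files. The level of 1 marker gene is not reported here.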

Additional observations from a re-analysis of the deposited data

Results flagged for a closer look

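Among 35 sets of 4 samples (a gene in a breed and hour, with over 3 counts in its highest sample), 2 had 1 sample far from the other 3, by Dixon's ratio and its 95% critical value, which chance passes in about 1 of 20 sets. CD83 in Angus at 8 h was 0.625 CPM in animal 1 and 0.197 to 0.255 CPM in the others (ratio 0.865). ICOSLG in Angus at 8 h was 0.925 CPM in animal 2 and 0.0563 to 0.191 CPM in the others (ratio 0.845). The low CD200 of Holstein animal 2 did not pass this limit. No gene moved one way in all animals of one breed and the other way in all animals of the other at 2 or 8 h.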

How the results depend on the processing

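Refits were counted only where the gene was tested in both the main fit and the refit. Calls gained or lost through the filter on low counts are thus left out. Among these were the ICOSLG breed call at 8 h, lost without a Holstein animal, and the CD200 breed call at 0 h, gained without the filter. Of 613 changes counted for the 7 genes, 576 kept their direction and call, 8 gained a call, 25 lost one and 4 turned direction. None of the 4 had been called. Those were CD200 in the 8 h interaction without Angus animal 2 (range over animals left out -0.047 to 0.81), ICOSLG from 2 to 8 h without Angus animal 3 (-0.21 to 0.051), and TNFSF18 in Angus at 8 h without Angus animal 2 (-0.047 to 0.14) or without the 4 samples counted otherwise (-0.086). The number of the 7 genes called moved by over 1.5 times in these cases. Without the CPM filter it was 2 in place of 1 between breeds at 0 h, with CD200 added. By the F test it was 1 in place of 2 between breeds at 2 h, 2 in place of 4 in Holstein at 2 h, and 1 in place of 2 in Holstein at 8 h. With the replicate block (the animals paired across hours) it was 4 in place of 2 at 2 h with breeds combined, and the block changed 1 other call, TNFSF18 in Angus at 2 h. Leaving out 1 animal in turn gave 1 to 3 between breeds at 2 h, 2 to 4 at 8 h, 0 to 3 in Angus at 2 h (0 without animal 3), 2 to 4 in Holstein at 2 h, 1 to 2 in Holstein at 8 h, and 0 to 1 in the 8 h interaction. Holstein animal 1, with the keratinocyte markers, left the number within 1 of its value when removed. The causes were not tested. Over the whole table the rows called ran from 20 to 900 per comparison. They moved by over 1.5 times in 11 of 12 comparisons by FDR alone (28 to 4822 rows), in 3 by the F test (0 to 759) and in 2 of 9 with the block (100 to 683). Without the samples counted otherwise they did so in 2 of 11 (between breeds at 0 h 259 in place of 781, 8 h interaction 6 in place of 20). With 1 animal left out, 8 single refits moved that far, all between breeds at 0 or 8 h or in the interactions. Between breeds at 8 h there were 446 rows without Angus animal 4 and 1133 without Angus animal 3, in place of 673. In the 8 h interaction there were 2 to 62. The shares of rows called that are printed as background move with these counts. Depth limits CD274, TNFRSF11B and CD83 at 0 h most.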
